A study of Mus musculus with 8 samples.

Results

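Suppressor of cytokine signalling (SOCS) and signal transducer and activator of transcription (STAT) genes were followed through the response of mouse macrophages to lipopolysaccharide (LPS). The 9 genes were Socs1, Socs2, Socs3, Cish, Stat2, Stat3, Stat5a, Stat5b and Stat6. They were chosen by gene name among the 23366 rows of the deposited table, with earlier results of these data known. All 9 were found in it. Bone marrow-derived macrophages are macrophages grown in culture from marrow precursors. All cells came from the C57BL/6 background, were at passage 1 and were kept without serum for 24 h. The 4 groups were untreated wild type, wild type with LPS for 2 h, untreated Lsd1SA/SA knock-in, and Lsd1SA/SA knock-in with LPS for 2 h, with 2 libraries each. The LPS dose is written in the labels as 1 mg/ml, and its unit could not be checked. Lsd1SA/SA is a knock-in that, per the labels, makes the histone demethylase LSD1 phosphorylation-defective, and no cell-type driver is named. For the knock-in with LPS, the sample titles state a time without naming LPS, which the other labels do. Whether libraries of a group are separate cultures or animals is not in the labels. The p-values therefore measure the spread between the libraries at hand, which may be technical.

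Cytokines bind receptors that carry Janus kinases, which phosphorylate STAT proteins, and the STATs then pair up and enter the nucleus to activate genes. SOCS proteins are the pathway's negative feedback: they are often induced by the STATs they restrain, block kinases or receptors, and use their SOCS box to bring in a ubiquitin ligase. In macrophages, LPS acts through a Toll-like receptor and NF-kB, and cytokines released by the cells, interferon beta and interleukin 10 among them, then engage the STATs. The series title places LSD1 between protein kinase C alpha and NF-kB in the inflammatory response, and the comparisons ask how LPS acted in each genotype and whether its effect differed between them.

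Levels below are scaled CPM, the reads of a gene relative to a scaled library size, and are compared between libraries, not between genes, since they are not corrected for gene length. The libraries held 40379258 to 55595160 reads. Changes were tested with limma on log2(scaled CPM + 1) over 11919 genes, those that reached 1 scaled CPM in 2 or more libraries, and were called where the Benjamini-Hochberg adjusted p was under 0.05. Of the 9 members, 8 were tested. Each of these was at 1.48 or more in every library, so none entered through 1 group alone. Socs2 was not tested.

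The 2 libraries labelled knock-in LPS stood apart from the other 6 in sex-linked transcripts. Xist, made from the inactive X chromosome, was at 0.212 and 0.366 in them and at 315 or more in each of the others. The summed level of 4 Y-linked genes was 90.4 and 96.3 in them and at most 0.0503 elsewhere. The untreated and LPS libraries of the knock-in therefore cannot come from the same animals. In every comparison that uses these libraries, genotype or treatment cannot be told apart from the sex of the animals. Nor can it be told apart from other differences between animals or cultures, or from an error in the labels. Rises and falls with LPS in the knock-in are described below with this limit. Comparisons without these libraries are given beside the results that allow it. All 7 macrophage markers found in the table were present, with a summed level of 11835 to 15735 over the libraries. They did not move together. In the libraries labelled knock-in LPS, Fcgr1 was at 927 and 898 (255 to 288 elsewhere). Itgam was at 460 and 440 there (636 to 732 elsewhere) and Emr1 at 1134 and 1062 (1351 to 1818 elsewhere). Lyz2 and Cd68 were also lowest there, while Csf1r and Mertk lay within the range of the other libraries. In the libraries labelled knock-in LPS the summed level of 6 stromal markers was 67.4 in both (14.5 to 20.9 elsewhere), and that of 4 dendritic cell markers was 4.73 and 5.27 (35.8 to 50.1 elsewhere). Nearly all of the dendritic cell sum was 1 gene, Itgax, at 4.65 and 4.04 in these libraries and 33.9 to 47.1 elsewhere, while Flt3, Zbtb46 and Ccr7 were at 2.35 or less throughout. The summed level of 6 neutrophil markers was 610 and 637 in wild type with LPS and 284 to 371 elsewhere. That rise lay in S100a8, S100a9, Camp and Ngp. Mpo was at 9.25 to 13.0 throughout, and Elane at 1.51 and 1.67 in wild type with LPS and 1.48 to 3.49 elsewhere. The libraries labelled knock-in LPS also had the lowest sums of 5 B and T cell markers (5.42 and 6.46, 8.84 to 11.6 elsewhere) and of 3 erythroid markers (0.231 and 0.247, 0.482 to 1.02 elsewhere). They had the highest sum of 3 mast cell and basophil markers (24.6 and 26.2), which was 20.1 and 20.3 in wild type with LPS and 12.3 to 13.5 in untreated cells. No listed marker was at 0 in all 8 libraries, and the part of these cell types in the results below was not tested. In whole-culture RNA, fewer cells of a type and less RNA per cell cannot be told apart. The LPS target genes Tnf and Il1b were at 4039 and 3915, and at 2086 and 2318, in wild type with LPS, but at 48.7 and 48.5, and at 1.77 and 1.18, in the libraries labelled knock-in LPS. Untreated cells had 26.4 to 27.4 of Tnf and 1.26 to 1.68 of Il1b. Kdm1a, the gene for LSD1, was at 31.1 to 47.3 in every library, and its level does not check the substitution.

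In wild-type macrophages, LPS raised Socs1, Socs3, Cish, Stat3 and Stat5a and lowered Stat2. In the libraries labelled knock-in LPS, Socs1 and Socs3 rose far less, Cish and Stat5a did not pass the test, and Stat2 rose in place of falling. Stat3 rose in both genotypes, and Stat6 was called higher in both, but its wild-type direction turned under quantile normalization, which forces all libraries to the same distribution. Of the 8 tested members, limma called 6 higher and 1 lower with LPS in wild type, where 26.8% of all tested genes were called higher and 30.7% lower. In the knock-in it called 5 higher and 0 lower, against 28.5% higher and 28.3% lower of all tested genes. The median log2 change of the 8 was 1.16 in wild type (-0.032 over all tested genes) and 0.40 in the knock-in (0.016 over all tested genes). Since the members were chosen with earlier results of these data known, these counts and medians are only a description. In the knock-in, 5 members had an unadjusted p under 0.05, none of them lower, while edgeR on recovered reads called 6, the sixth being Cish as lower. Under quantile normalization 8 members were called with LPS in wild type, 5 higher and 3 lower, and 35.4% of all wild-type LPS calls were higher in place of 46.6%.

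**Figure D1:**
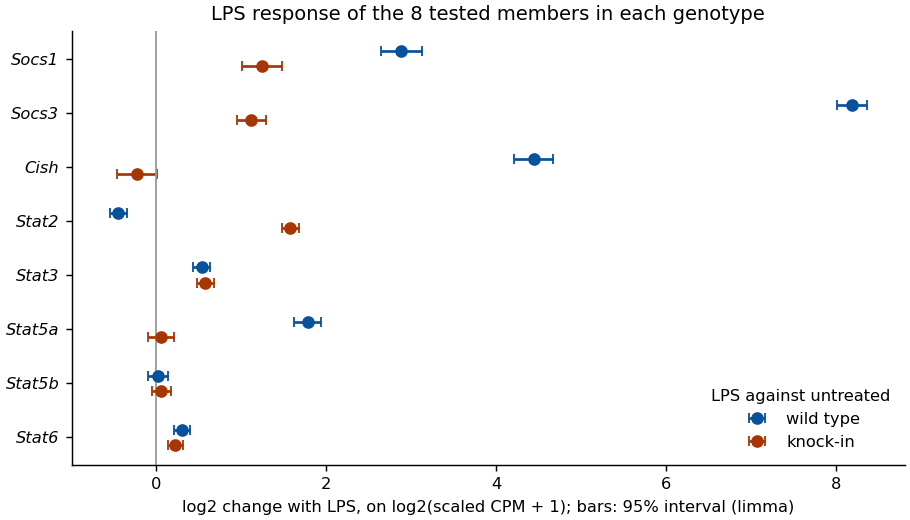
LPS response of the 8 tested members: the horizontal axis is the log2 change with LPS on log2(scaled CPM + 1), points are limma estimates from 2 libraries per group and bars are 95% intervals, with wild type in blue and knock-in in brown. Socs3 lies at 8.19 for wild type and 1.12 for the knock-in, Stat2 lies on opposite sides of 0, and Stat3, Stat5b and Stat6 have intervals that overlap between the genotypes.

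The SOCS family genes are described first, with the start of each gene that carried a short motif named below. Promoter sequences are those of RefSeq on GRCm38.p6, read 5′ to 3′ on the gene's strand. A window covers 250 bases before the annotated start and 50 after it, and windows were found for 8 of the 9 members, 10 windows in all, with none for Socs2. Both strands were searched for a STAT dimer site (TTCNNNGAA), the core of the interferon-stimulated response element, ISRE (GAAANNGAA), the TATA box (TATAAA) and the NF-kB consensus. Across 32851 windows of 300 bases in the table, 8.30% held the STAT dimer site, 8.56% the ISRE core, 13.6% the TATA box and 8.46% the NF-kB consensus. No member's window held TATAAA. The sequences below are shown because Socs1, Socs3 and Cish had the highest wild-type changes of the members, and capitals mark the motif matches. In Socs1 the capitals are 2 overlapping ISRE core matches that begin 83 and 77 bases before the start. In Socs3 they are a STAT dimer site that begins 154 bases before the start. The 26 bases of Cish hold 2 STAT dimer sites, one beginning at the start itself and the other 11 bases after it. A match is a description of the letters, not evidence of binding.
Socs1 promoter, chr16:10785537-10785786, minus strand: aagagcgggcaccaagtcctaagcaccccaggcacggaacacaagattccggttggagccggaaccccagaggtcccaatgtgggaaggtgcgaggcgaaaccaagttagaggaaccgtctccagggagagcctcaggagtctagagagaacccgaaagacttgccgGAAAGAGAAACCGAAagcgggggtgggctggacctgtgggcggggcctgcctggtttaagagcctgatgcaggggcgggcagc
Socs3 promoter, chr11:117969367-117969616, minus strand: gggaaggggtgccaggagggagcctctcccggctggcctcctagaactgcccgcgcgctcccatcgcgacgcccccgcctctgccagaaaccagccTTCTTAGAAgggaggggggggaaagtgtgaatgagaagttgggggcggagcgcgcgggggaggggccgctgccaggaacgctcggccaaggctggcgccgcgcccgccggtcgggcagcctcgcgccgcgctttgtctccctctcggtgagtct
Cish start site, chr9:107296656-107296681, plus strand: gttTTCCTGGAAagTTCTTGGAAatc

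Socs1 encodes an inhibitor of Janus kinases that restrains interferon signalling. Its level was 1.88 and 1.48 in untreated wild type, 18.1 and 19.5 in wild type with LPS, 2.48 and 2.53 in untreated knock-in, and 7.56 and 7.06 in the libraries labelled knock-in LPS. The 4 groups did not overlap, and both LPS groups lay above both untreated groups. The LPS level was 11.2 times the untreated one in wild type (9.63 to 13.1 over pairs of libraries) and 2.92 times in the knock-in (2.79 to 3.05). On the log2 scale the change was 2.89 ± 0.12 (SE; limma adjusted p = 9.59e-17) in wild type and 1.24 ± 0.12 (limma adjusted p = 2.15e-09) in the knock-in. The difference between these changes was -1.64 ± 0.16 (limma adjusted p = 5.42e-09).

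Socs3 encodes the inhibitor that binds the gp130 receptor and limits STAT3 signalling from interleukin 6. Its level was 2.19 and 2.43 in untreated wild type, 969 and 955 in wild type with LPS, 1.95 and 1.99 in untreated knock-in, and 5.38 and 5.56 in the libraries labelled knock-in LPS. Wild type with LPS stood far above every other library, and the libraries labelled knock-in LPS came next. The LPS level was 417 times the untreated one in wild type (393 to 442 over pairs of libraries) and 2.77 times in the knock-in (2.70 to 2.85). With LPS, wild type was 176 times as high as the knock-in (172 to 180 over pairs). The log2 change was 8.19 ± 0.084 (SE; limma adjusted p = 2.03e-28) in wild type and 1.12 ± 0.084 (limma adjusted p = 4.84e-11) in the knock-in, and their difference was -7.06 ± 0.12 (limma adjusted p = 8.62e-24).

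Cish encodes CIS, a feedback inhibitor of receptors that signal through STAT5. Its level was 2.04 and 2.24 in untreated wild type, 63.1 and 71.6 in wild type with LPS, 1.95 and 2.07 in untreated knock-in, and 1.62 and 1.53 in the libraries labelled knock-in LPS. The untreated groups overlapped, and the libraries labelled knock-in LPS lay below every other library. In wild type the LPS level was 31.4 times the untreated one (28.1 to 35.1 over pairs), a log2 change of 4.44 ± 0.11 (SE; limma adjusted p = 8.16e-21). In the knock-in it was 0.785 times the untreated one (0.742 to 0.830 over pairs), with a log2 change of -0.22 (95% interval -0.46 to 0.0097, limma adjusted p = 0.0957). That change was called by edgeR on recovered reads (log2 change -0.36, edgeR adjusted p = 0.0496), and its adjusted p ran from 0.0496 to 0.528 over the alternatives. The difference between the genotypes' changes was -4.66 ± 0.16 (limma adjusted p = 7.93e-18).

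Socs2, an inhibitor known from growth hormone signalling, was near the lower end of what the libraries could measure. It had 27 and 15 reads in untreated wild type, 30 and 18 in wild type with LPS, 8 and 32 in untreated knock-in, and 16 and 16 in the libraries labelled knock-in LPS. These are 0.501 and 0.347, 0.754 and 0.407, 0.184 and 0.591, and 0.309 and 0.282 scaled CPM. The 2 untreated knock-in libraries lay farther apart than any group means. Without the filter on low values its log2 change was 0.14 with LPS in wild type (limma adjusted p = 0.513) and -0.083 in the knock-in (limma adjusted p = 0.717), so a difference was not detectable at this depth.

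**Figure D2:**
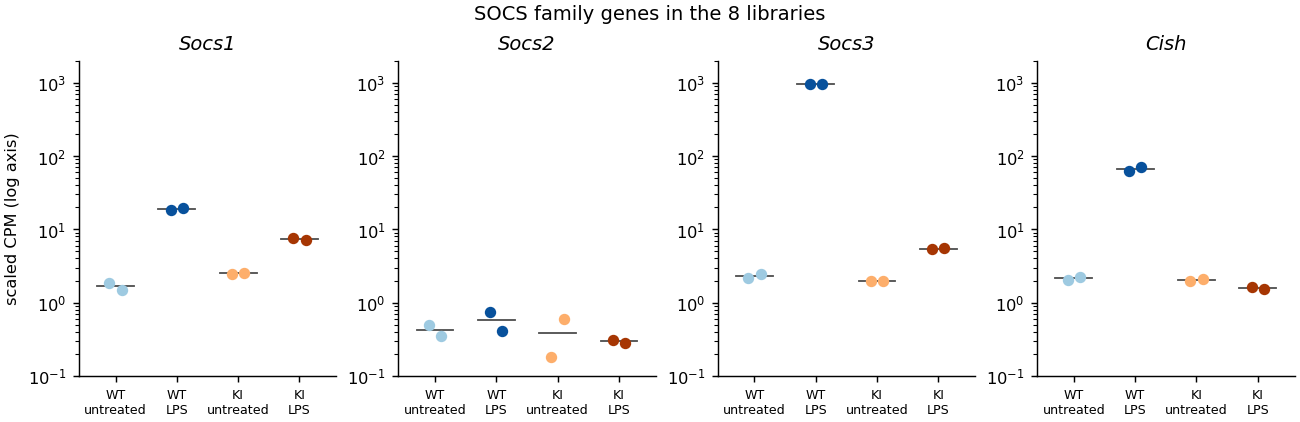
SOCS family genes by group: the vertical axis is scaled CPM on a log axis shared by the 4 panels, each point is 1 library, each line is the mean of the 2 libraries of a group, and WT and KI stand for wild type and knock-in. Socs3 reaches 955 and 969 in wild type with LPS and 5.38 and 5.56 in the libraries labelled knock-in LPS, and Socs2 stays below 1 in all 8 libraries.

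Of the STAT genes, Stat2 and Stat5a were called between the genotypes after LPS, and their promoters are shown for that reason. Stat3, Stat5b and Stat6 were not called there by limma on the deposited scaling, but each was called under at least 1 alternative, as given below. In Stat2 the capitals are an ISRE core match on the minus strand that begins 221 bases before the start. Stat5a has 2 windows, and in the one shown the capitals are an NF-kB consensus match, found on both strands, that begins 234 bases before the start. The windows of Stat3, Stat5b and Stat6 held none of the 4 motifs.
Stat2 promoter, chr10:128270248-128270497, plus strand: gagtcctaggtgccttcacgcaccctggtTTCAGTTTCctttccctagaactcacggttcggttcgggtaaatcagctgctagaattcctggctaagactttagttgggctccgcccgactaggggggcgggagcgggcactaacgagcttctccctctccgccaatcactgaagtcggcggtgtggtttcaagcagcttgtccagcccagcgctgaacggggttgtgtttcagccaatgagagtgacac
Stat5a promoter, chr11:100860234-100860483, plus strand: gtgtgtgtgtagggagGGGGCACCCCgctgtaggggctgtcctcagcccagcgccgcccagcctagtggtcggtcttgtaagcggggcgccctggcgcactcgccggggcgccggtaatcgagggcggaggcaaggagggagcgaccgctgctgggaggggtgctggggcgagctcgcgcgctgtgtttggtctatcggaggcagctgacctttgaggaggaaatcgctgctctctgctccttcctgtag

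Stat2 encodes a STAT that works with IRF9 in the activation of type I interferon response genes. Its level was 123 and 131 in untreated wild type, 92.0 and 94.2 in wild type with LPS, 122 and 119 in untreated knock-in, and 364 and 360 in the libraries labelled knock-in LPS. Wild type with LPS held the lowest libraries and the knock-in LPS group the highest. The LPS level was 0.733 times the untreated one in wild type and 3.0 times in the knock-in. The log2 change was -0.44 ± 0.048 (SE; limma adjusted p = 2.34e-08) in wild type and 1.58 ± 0.048 (limma adjusted p = 1.74e-18) in the knock-in. Their difference was 2.02 ± 0.068 (limma adjusted p = 6.21e-18), and the sign of each of these values held under every alternative run.

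Stat5a encodes one of the closely related STAT5 proteins, which carry signals from GM-CSF and interleukin 3 in myeloid cells. Its level was 21.3 and 18.6 in untreated wild type, 68.8 and 73.4 in wild type with LPS, 20.6 and 21.7 in untreated knock-in, and 22.9 and 21.2 in the libraries labelled knock-in LPS. Wild type with LPS stood above all other libraries, and the ranges of the knock-in groups overlapped. The LPS level was 3.56 times the untreated one in wild type (log2 change 1.78 ± 0.075, SE, limma adjusted p = 3.41e-16). It was 1.05 times in the knock-in, where the log2 change was 0.061 (95% interval -0.095 to 0.22, limma adjusted p = 0.514). The difference between these changes was -1.72 ± 0.11 (limma adjusted p = 1.02e-12).

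Stat5b, the paralog next to Stat5a in the genome, was nearly level. It was at 59.8 and 62.1 in untreated wild type, 63.7 and 60.4 in wild type with LPS, 61.5 and 61.6 in untreated knock-in, and 65.0 and 63.8 in the libraries labelled knock-in LPS. All 8 libraries lay between 59.8 and 65.0. Its log2 change with LPS was 0.025 in wild type (95% interval -0.089 to 0.14, limma adjusted p = 0.722) and 0.063 in the knock-in (-0.052 to 0.18, limma adjusted p = 0.347). Under quantile normalization the wild-type value was -0.13 and was called (limma adjusted p = 0.0483). Stat5a and Stat5b are close in sequence, and how reads that match both were counted is not given in the sources used here, so the split of reads between them is uncertain.

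Stat3, which carries interleukin 6 and interleukin 10 signals, rose in both genotypes. Its level was 98.6 and 96.4 in untreated wild type, 142 and 141 in wild type with LPS, 101 and 98.6 in untreated knock-in, and 151 and 147 in the libraries labelled knock-in LPS. Both LPS groups lay above both untreated groups. The log2 change was 0.54 ± 0.048 (SE; limma adjusted p = 8.12e-10) in wild type and 0.58 ± 0.048 (limma adjusted p = 3.53e-10) in the knock-in. The difference was 0.039 (95% interval -0.10 to 0.18, limma adjusted p = 0.634), but under quantile normalization it was 0.27 and was called (limma adjusted p = 0.00184). Stat3 and Stat5a overlap on opposite strands in the annotation used, and whether counting used strand is not given in the sources used here, so reads of the overlap cannot be told apart.

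Stat6, the STAT of interleukin 4 and interleukin 13, had 255 and 250 in untreated wild type, 309 and 316 in wild type with LPS, 252 and 251 in untreated knock-in, and 301 and 289 in the libraries labelled knock-in LPS. Both LPS groups lay above both untreated groups, and the knock-in LPS libraries lay below the wild-type LPS libraries. The log2 change was 0.31 ± 0.045 (SE; limma adjusted p = 2.48e-06) in wild type and 0.23 ± 0.045 (limma adjusted p = 1.41e-04) in the knock-in, but under quantile normalization the wild-type change was -0.15 (limma adjusted p = 0.00689). The difference between the changes was -0.078 (95% interval -0.21 to 0.053, limma adjusted p = 0.289), and under quantile normalization it was 0.34 (limma adjusted p = 9.70e-05). The direction of the wild-type change in Stat6 therefore depends on the scaling. Stat6 overlaps Nab2, a corepressor gene, on the opposite strand. Nab2 was at 34.0 and 33.5 in untreated wild type, 72.2 and 78.2 with LPS, 32.8 and 32.5 in untreated knock-in, and 15.9 and 16.4 in the libraries labelled knock-in LPS. Its part in the Stat6 counts was not tested.

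**Figure D3:**
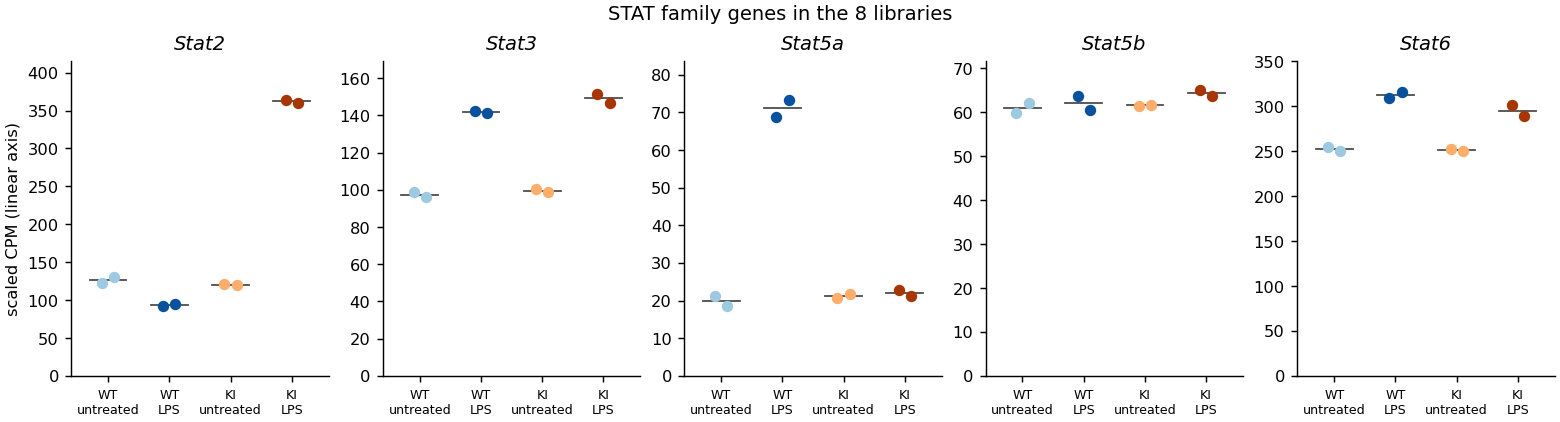
STAT family genes by group: the vertical axis is scaled CPM on a linear axis that starts at 0 and differs between the 5 panels, each point is 1 library, each line is the mean of 2 libraries, and WT and KI stand for wild type and knock-in. Stat2 is highest in the libraries labelled knock-in LPS (364 and 360), Stat5a is highest in wild type with LPS (68.8 and 73.4), and Stat5b lies between 59.8 and 65.0 throughout.

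Without LPS, no member was called between the genotypes. Of all tested genes 0.00839% were called higher in the knock-in, which is 1 gene (Myl6b, named after its values were seen), and 0% lower. At an unadjusted p under 0.05 there were 1617 genes, 1 of them a member, Socs1. edgeR and DESeq2 on recovered reads called 0 members each, and 1 and 31 genes. For Socs1 the knock-in libraries (2.48 and 2.53) lay above those of wild type (1.88 and 1.48), a log2 difference of 0.39 ± 0.12 (SE; limma adjusted p = 0.171). Leaving out the first untreated wild-type library gave 0.50, which was called (limma adjusted p = 0.0367), and 481 genes were then called in all. For the other 7 tested members the log2 difference was between -0.15 (Socs3) and 0.080 (Stat5a). The 95% interval was -0.33 to 0.020 for Socs3 and -0.30 to 0.17 for Cish, and those of Stat3, Stat5b and Stat6 lay within -0.10 to 0.13.

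With LPS, 1 member was called higher in the knock-in than in wild type and 4 lower, where 38.5% of all tested genes were called higher and 36.8% lower. Stat2 was the higher one, at 3.89 times the wild-type level (log2 difference 1.95, limma adjusted p = 4.89e-21). The lower ones were Socs3 (log2 difference -7.22), Cish (-4.73), Stat5a (-1.64) and Socs1 (-1.25), with limma adjusted p values of 7.77e-10 or less. Stat6 was at -0.083 (95% interval -0.18 to 0.0098, limma adjusted p = 0.0977), while edgeR (-0.13, edgeR adjusted p = 0.0203) and DESeq2 (-0.11, DESeq2 adjusted p = 0.0229) on recovered reads and median-of-ratios scaling (-0.11, limma adjusted p = 0.0297) called it lower. edgeR and DESeq2 thus called 6 members each, 1 higher and 5 lower. Under quantile normalization all 8 were called, 4 in each direction, with Stat6 at 0.32 (limma adjusted p = 1.59e-06), Stat3 at 0.30 (limma adjusted p = 1.07e-05) and Stat5b at 0.18 (limma adjusted p = 0.00666). The same 5 genes were called in the test of whether the LPS change differed between genotypes, 1 higher and 4 lower, and 31.8% of all tested genes were called in each direction there. Under quantile normalization 7 were called in that test, 3 higher and 4 lower. Both comparisons use the libraries labelled knock-in LPS, and no comparison within one sex can be made for them. The wild-type LPS calls do not use those libraries for their group means, and the same 6 higher and 1 lower members were called when those libraries were left out of the fit.

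The rest of the pathway was followed through 6 lists of genes, each described by its counts beside the shares of all tested genes given above. Of 16 cytokine ligands in the table, 13 were tested. All 13 were called higher with LPS in wild type (median log2 change 3.20), 5 higher and 1 lower in the knock-in (median 0.079), and the LPS change of all 13 was called lower in the knock-in. Most of the 13 passed the filter only through wild type with LPS: Il6, Lif, Ifnb1, Csf2, Csf3, Il12a, Il12b and Il23a. These were under 1 scaled CPM in every other library, so the counts and medians of the ligands are only a description. Il27, an activator of STAT3, was at 1.19 and 1.34 in untreated wild type, 156 and 178 with LPS, 0.942 and 1.31 in untreated knock-in, and 1.79 and 1.75 in the libraries labelled knock-in LPS. Its log2 change in the knock-in, 0.39, was no longer called without the first untreated knock-in library (0.26, limma adjusted p = 0.119). Il10, whose receptor signals through STAT3, rose from 7.17 and 8.24 to 137 and 128 in wild type and fell from 6.73 and 6.42 to 4.98 and 4.48 in the knock-in (log2 change -0.40, limma adjusted p = 6.17e-04). Ifnb1, the gene for interferon beta, was at 0 in both untreated wild-type libraries, 45.4 and 43.0 with LPS, 0.0459 and 0 in untreated knock-in, and 0.463 and 0.565 in the libraries labelled knock-in LPS. Osm, a gp130 ligand, was at 6.42 and 7.43, 36.6 and 35.4, 7.07 and 7.49, and 10.2 and 10.6 in the same order of groups. Il12b, a subunit of interleukin 12, was at 81.8 and 91.8 in wild type with LPS and at 0.278 or less elsewhere.

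Of 21 receptor genes, 20 were tested, and 12 were called higher and 5 lower with LPS in wild type, 10 higher and 6 lower in the knock-in. Their median log2 change was 0.21 and 0.16. Il10ra, the ligand-binding chain for interleukin 10, rose from 168 and 159 to 480 and 469 in wild type (a log2 change of 1.53, limma adjusted p = 3.06e-19) and was at 167 and 163, and 171 and 168, in the knock-in. Il4ra, which signals through STAT6, rose in both genotypes, from 140 and 132 to 220 and 232 in wild type and from 151 and 150 to 281 and 263 in the knock-in (log2 changes 0.73 and 0.85). Il6st, which encodes gp130, fell by 0.47 on the log2 scale in each genotype (limma adjusted p at most 5.85e-08). Il15ra, the interleukin 15 receptor chain, was at 3.69 and 4.51, 32.8 and 35.0, 4.36 and 4.73, and 9.01 and 8.03 in the order of groups used above. Il21r rose in the knock-in from 48.9 and 51.5 to 94.6 and 90.5 (log2 change 0.87, limma adjusted p = 1.64e-11). Lifr, the leukaemia inhibitory factor receptor, fell there from 7.30 and 5.80 to 1.23 and 1.59 (log2 change -1.64, limma adjusted p = 4.82e-11). Lifr was also called lower in wild type, from 8.06 and 8.08 to 5.95 and 6.38 (log2 change -0.34, limma adjusted p = 0.0214). That wild-type call was lost under several alternatives, among them quantile normalization (limma adjusted p = 0.281) and DESeq2 on recovered reads (DESeq2 adjusted p = 0.0679).

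All 4 Janus kinases were called higher with LPS in wild type and 2 of them higher in the knock-in, with medians of 0.38 and 0.18. Jak2, the kinase of receptors that use STAT5, was at 44.6 and 47.6 in untreated wild type, 266 and 279 with LPS, 43.4 and 40.7 in untreated knock-in, and 53.1 and 50.7 in the libraries labelled knock-in LPS. Its log2 change was 2.54 ± 0.057 (SE; limma adjusted p = 7.41e-22) in wild type and 0.30 ± 0.057 (limma adjusted p = 1.07e-04) in the knock-in. Tyk2, a kinase of the interferon and interleukin 12 receptors, rose by 0.39 in wild type (limma adjusted p = 1.01e-05), from 68.0 and 65.7 to 90.6 and 84.8, and was at 64.1 and 72.4, and 70.0 and 64.4, in the knock-in. Jak3 rose by 0.35 in the knock-in (limma adjusted p = 1.34e-04), while its wild-type call was lost without the second untreated library (limma adjusted p = 0.0737) or the first LPS library (limma adjusted p = 0.0610).

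**Figure D4:**
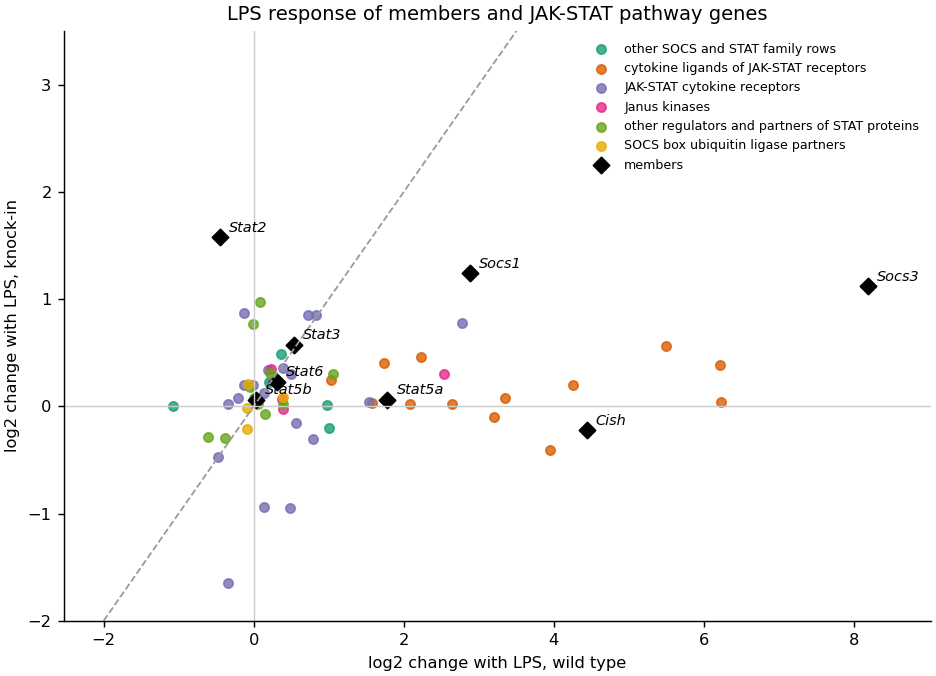
LPS response of the pathway: the horizontal axis is the log2 change with LPS in wild type and the vertical axis that in the knock-in, each point is 1 gene (black diamonds for the 8 tested members, colours for the 6 lists), and the dashed line marks equal changes. The 13 tested ligands lie right of 0 and below the line, Socs3 and Cish lie far to the right of it, and Stat2 lies left of 0 with a value of 1.58 in the knock-in. Most of these ligands passed the filter on low values only through wild type with LPS, so their place is a description.

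The other SOCS and STAT genes in the list, Socs4 to Socs7 and Stat4, were all tested. With LPS, 3 were called higher and 1 lower in wild type, and 1 higher and 1 lower in the knock-in. Socs5 and Socs7 rose in wild type by 1.01 and 0.98 on the log2 scale, and Socs6 fell by 1.07 (limma adjusted p at most 2.73e-11). Socs7 was at 19.7 and 19.3 in untreated knock-in and 20.1 and 19.3 with LPS, and Socs6 at 62.5 and 71.0, and 64.7 and 68.5. Socs4 rose in both genotypes (0.37 and 0.49, limma adjusted p at most 4.89e-04). Socs5 was called lower with LPS in the knock-in at -0.20, but not with DESeq2 on recovered reads (-0.20, DESeq2 adjusted p = 0.0506). The call was also lost without the first or second untreated knock-in library (-0.18 and -0.22) or the second knock-in LPS library (-0.16).

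Irf9, a DNA-binding factor that acts with STAT2 in the interferon response, was at 86.1 and 90.1 in untreated wild type, 86.2 and 89.4 with LPS, 89.4 and 89.9 in untreated knock-in, and 156 and 150 in the libraries labelled knock-in LPS. The knock-in LPS libraries stood above all others, while the other 3 groups lay within 86.1 to 90.1. The log2 change with LPS in the knock-in was 0.77 (limma adjusted p = 4.76e-12), beside the 1.58 of Stat2. In wild type Irf9 was not called (limma adjusted p = 0.941), and the test of a difference between genotypes gave 0.77 (limma adjusted p = 1.86e-09). Nmi, an interferon-induced STAT partner, was at 17.7 and 19.0, 19.4 and 19.6, 17.7 and 17.1, and 36.0 and 34.5 in the same order of groups.

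**Figure D5:**
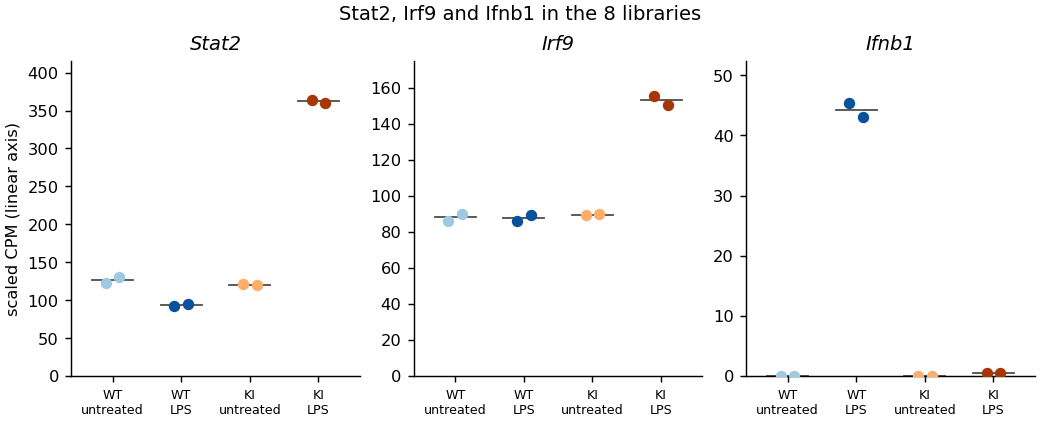
Stat2, Irf9 and Ifnb1 by group: the vertical axis is scaled CPM on a linear axis that starts at 0 and differs between panels, each point is 1 library and each line the mean of 2, and WT and KI stand for wild type and knock-in. Stat2 and Irf9 are highest in the libraries labelled knock-in LPS, while Ifnb1 is at 45.4 and 43.0 in wild type with LPS and at 0.565 or less elsewhere.

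Among 11 other regulators and partners of STAT proteins, 4 were called higher and 2 lower with LPS in wild type, and 5 higher and 2 lower in the knock-in. Ptpn2, a phosphatase that acts on Janus kinases and STATs, rose from 21.8 and 25.1 to 49.0 and 50.1 in wild type and from 21.2 and 22.1 to 27.7 and 26.1 in the knock-in (log2 changes 1.05 and 0.30, limma adjusted p at most 0.0014). Pias3, an inhibitor of STAT3, fell in wild type from 20.1 and 22.2 to 15.0 and 12.2 (log2 change -0.61, limma adjusted p = 3.86e-06). Its call in the knock-in (-0.28) was lost with no filter on low values (limma adjusted p = 0.0566). That call was also lost without the second untreated knock-in library (-0.26) or the second knock-in LPS library (-0.23). Of the 4 SOCS box ligase genes, 1 was called higher in wild type, and 1 higher and 1 lower in the knock-in. Tceb1, which encodes elongin C, rose by 0.39 in wild type, while Tceb2 (elongin B) rose by 0.21 and Rnf7 fell by 0.21 in the knock-in. Under quantile normalization 3 of these 4 genes were called in wild type, 1 higher and 2 lower.

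For each tested member, the 3 named genes with the nearest pattern over the 8 libraries were found by the root-mean-square difference of their centred log2 levels. Socs3 was nearest to Cxcl10 (0.28), then Ptgs2 and Tnfsf9, each with 453 to 1082 as its wild-type LPS mean and at most 4.09 as its knock-in LPS mean. Cish was nearest to Cd83 (0.13), then Edn1 and Wdr92. Edn1 had a mean of 21.7 in wild type with LPS and at most 0.123 in the other groups. It was therefore tested only through wild type with LPS, and its nearness to Cish depends on the pseudocount of 1. Socs1 was nearest to the guanylate-binding protein gene Gbp2 (0.12), then Hilpda and Trex1. Gbp2 had group means of 35.2 in untreated wild type, 236 with LPS, 39.5 in untreated knock-in and 106 in the libraries labelled knock-in LPS. Stat2 was nearest to Trim34a (0.056), then Plbd1 and Kdr, and Trim34a had means of 37.2, 25.4, 34.5 and 98.1 in that order. Stat5a was nearest to Spryd7 (0.066), Ampd3 and Bcl2l11, and Bcl2l11, a pro-apoptotic gene, had means of 151, 555, 160 and 164. Stat3 was nearest to Cd47 (0.043), Stat5b to Enox2 (0.023), and Stat6 to Psmd14 (0.024) and then Ifngr2, an interferon gamma receptor chain. Of these 24 genes, 17 were again among the nearest with a pseudocount of 0.1 and 15 with a pseudocount of 3.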

How the data were processed

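RNA-seq was made from 8 libraries of mouse bone marrow-derived macrophages, 2 per group, grouped by their GEO labels. The authors deposited 1 table of 23366 genes whose values are a signal: counts per gene over a library size scaled by a factor, as TMM-scaled CPM, worked out from the value steps. All values above 0 were whole reads within 0.001 (100%), which gave the depths of 40379258 to 55595160 reads. TopHat2 2.0.9, bedtools, edgeR and the mm9 build are named, per the submitters' processing notes. The sources used here do not state the counting rule, annotation or strand.

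limma 3.58.1 (R 4.3.3) with a variance trend was fitted 2-sided to log2(value + 1) of all 8 libraries, as 4 group means with 4 residual and 19.1 prior degrees of freedom. Genes with 1 or more in at least 2 libraries (11919) were tested, with Benjamini-Hochberg adjustment within each of 5 comparisons and a threshold of 0.05. A change on this scale understates that of low genes. edgeR 4.0.16 and DESeq2 1.42.0 on the recovered reads, other pseudocounts, filters, scalings and left-out libraries were the alternatives. The script was tested on simulated data.

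The members and the gene lists were chosen with earlier results of these data known. One gene of a list is not reported here. Named were all members, the checks Kdm1a, Tnf and Il1b, the 3 nearest genes per member, and per list up to 2 called genes with the largest change in each direction for each genotype's LPS effect. GENCODE vM21 (GRCm38) was used for neighbours, not for coordinates of the table, since it is another build. Replicates of a group differed by more than the sampling noise (chi-square per gene 5.72 to 13.7, where independent reads give about 1). Low read counts were mostly even (75.8 to 78.0% of counts from 2 to 20), which may mean that both reads of a pair were counted.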

Additional observations from a re-analysis of the deposited data

Results flagged for a closer look

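The values here are the LPS effect of the knock-in less the wild-type LPS effect, on the log2(value + 1) scale, for named genes in which that difference passed limma's interaction test (adjusted p under 0.05). The test uses the libraries labelled knock-in LPS, which differ from the other 6 in sex-linked transcripts. Of the members, Socs3 was at -7.06, Cish at -4.66, Stat5a at -1.72, Socs1 at -1.64 and Stat2 at 2.02.

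The pathway genes below were named for the size of their LPS changes, and 31.8% of all tested genes passed in each direction, so how many passed is not a result about them. Among the ligands, Il12b was at -6.18, Il27 at -5.83, Ifnb1 at -4.93, Il10 at -4.35 and Osm at -1.76. Ifnb1 and Il12b were tested only because wild type with LPS brought them past the filter on low values, so their difference was fixed by that filter. Their values are a description that depends on the pseudocount. Among the receptors, Il15ra was at -2.0, Il10ra at -1.50, Il27ra at -1.43 and Lifr at -1.30, while Il6ra was at 0.37 and Il21r at 1.00. The kinase genes Jak2 and Tyk2 were at -2.24 and -0.41. Of the other family genes, Socs5 was at -1.20, Socs7 at -0.97 and Socs6 at 1.07. Of the other partners and regulators, Ptpn2 was at -0.75, Ptpn11 at -0.37, Nmi at 0.89, Irf9 at 0.77 and Pias3 at 0.32. Tceb1 was at -0.30 and Tceb2 at 0.28. The Pias3 and Ptpn11 differences were not called under quantile normalization (limma adjusted p = 0.126 and 0.125), and the Pias3 call was also lost with no filter on low values (limma adjusted p = 0.102), with edgeR (adjusted p = 0.0633) and DESeq2 (adjusted p = 0.0686), and when any of 5 single libraries was left out (limma adjusted p 0.0510 to 0.223).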

How the results depend on the processing

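Of the members' values under the alternatives, 716 kept their direction and side of the threshold. Another 8 kept their direction and newly passed the threshold, 0 kept their direction and lost a call, and 12 changed sign. Quantile normalization gave a log2 change with LPS in wild type of -0.13 for Stat5b and -0.15 for Stat6. For Stat6 it gave 0.32 for knock-in against wild type with LPS and 0.34 for the difference of LPS changes. These changes of sign were all called (limma adjusted p = 0.0483, 0.00689, 1.59e-06 and 9.70e-05 in that order). Only the Stat6 wild-type change had been called on the deposited scaling, in the other direction. Quantile normalization also called all 8 tested members in knock-in against wild type with LPS, 4 in each direction. edgeR gave differences of LPS changes of -0.0052 for Stat3 and -0.0075 for Stat5b, neither called. The remaining changes of sign, none called, came from leaving out 1 library. Over the left-out libraries, Stat5b ran from -0.012 (without the first wild-type LPS library; -0.0015 without the first untreated wild-type library) to 0.063 with LPS in wild type, and from -0.00036 (without the second wild-type LPS library) to 0.075 for the difference of LPS changes. Between untreated genotypes, Stat5a ran from -0.012 (without the second untreated wild-type library) to 0.17, and without the first untreated wild-type library Stat5b was -0.012 (up to 0.041 otherwise) and Stat6 0.0089 (down to -0.018 otherwise). Between untreated genotypes, the 1 gene called became 2 with a pseudocount of 3, 0 with no filter, 31 with DESeq2 and 18 with a robust variance prior, and 1 to 481 when 1 library was left out (members called 0 to 1). The cause of these changes was not tested.

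Replicate numbers did not pair the samples: the correlation over genes of replicate differences between groups ran from -0.139 to 0.168. With the replicate number as a block, genes called were 6857 and 6736 (LPS in wild type and knock-in, 6861 and 6764 without the block), 1 (untreated genotypes), 8962 (genotypes with LPS) and 7582 (difference of LPS changes), and no call of a member changed. With the numbers of untreated wild type crossed, chosen after seeing the data, 126 genes and 0 members were called between untreated genotypes. Depth limits Socs2, with 8 to 32 reads per library.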
